A study of Sus scrofa with 6 samples.

Results

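The growth hormone to STAT5 signalling axis was examined in longissimus dorsi, a muscle of the back, through 10 genes: the receptor *GHR*, the kinase *JAK2*, the transcription factors *STAT5A*, *STAT5B* and *STAT3*, the feedback inhibitors *CISH*, *SOCS1*, *SOCS2* and *SOCS3*, and the growth factor *IGF1*. These genes were taken by their pig symbols from a table of raw counts over 30476 Ensembl genes. *CISH* was chosen by its expression in these same samples, where its counts were much higher in the UCP1 KI pigs, and the others were added for their place in the axis, so the *CISH* difference between the genotypes is described without a test. Of the 10 genes, 9 had an identifier in the table, and each of these 9 passed the filter on low counts. *SOCS2* was not analysed here, since the identifier that carries its symbol is not among the counted genes.

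The study compared muscle of wild-type (WT) pigs with that of pigs carrying a knock-in of UCP1, a thermogenic uncoupling protein, directed to fat cells (UCP1 KI), and asked what happens in muscle when adipose tissue makes UCP1. There were 3 pigs of each genotype, all 6 months old, with 1 mRNA library per pig. The labels and methods name no treatment, whereas some captions of the study speak of cold, and whether these pigs were kept in the cold is not given in the sources used here. The methods do not name the promoter that drives UCP1, the sex of the pigs, or whether the knock-in animals came from 1 clone, and since the knock-in is directed to fat cells, the muscle counts give no check of the genotype. Gene counts summed to between 30220951 and 35066624 per pig. WT replicate 2 stood apart in composition, with 56.5% of its counts in its 20 most abundant genes and a scaling factor of 0.781, where the other 5 pigs ranged from 39.0% to 44.8% and from 0.918 to 1.18. UCP1 KI replicate 3 stood apart for several genes of the pathway, and values without these libraries stand beside the results that they moved most. Fibre genes with an identifier, *ACTA1*, *CKM*, *DES* and *TNNT3*, were abundant, at a sum of 56633 to 98320 CPM (counts per 1e+06 scaled counts) in the 6 pigs. Other defining fibre genes, such as *MYH7* and *TTN*, had no identifier under their symbol.

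Growth hormone binds a receptor, GHR, that has no enzyme activity of its own and works through the bound kinase JAK2. JAK2 phosphorylates STAT5A and STAT5B, which enter the nucleus and switch on target genes, among them *IGF1* and the SOCS family. CISH and the SOCS proteins then dock on the activated receptor or kinase and dampen the signal, so that their transcripts serve as a readout of recent cytokine or growth hormone signalling. STAT3 answers to cytokines of the IL6 family in the same way, and *SOCS3* is among its best known targets. In bulk muscle, fewer cells of a type and less RNA per cell cannot be told apart.

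*CISH* (ENSSSCG00000040581), on chromosome 13 from 33086280 to 33090540 in the RefSeq annotation of Sscrofa11.1, encodes a cytokine-inducible SH2 domain protein that is a direct STAT5 target. It was measured at 84.2, 62.0 and 47.3 CPM in UCP1 KI replicates 1 to 3, and at 5.87, 12.7 and 4.27 CPM in WT replicates 1 to 3. The lowest UCP1 KI pig was thus well above the highest WT pig. The means were 64.5 ± 18.6 CPM (SD, n = 3) and 7.61 ± 4.46 CPM (SD, n = 3), and their ratio was 8.48. The fitted log2 fold change was 3.09 ± 0.46 (standard error, SE), and 21 of the 13402 genes tested, or 0.157%, had a larger one. Leaving out the pigs in turn gave 2.80 to 3.67, the highest value being that without WT replicate 2. Since *CISH* was picked for this difference, these values support no statement about the pathway.

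**Figure D1:**
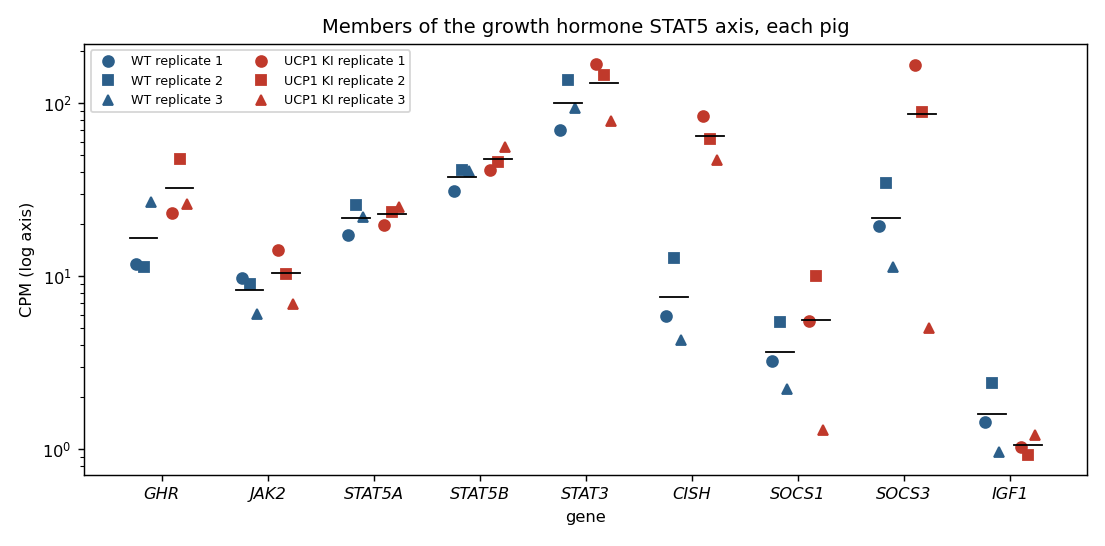
CPM of the 9 counted genes in each of the 6 pigs (log axis), with WT in blue, UCP1 KI in red, a symbol for each replicate number and a line at the mean of each group. *CISH* separates the genotypes, at 47.3 to 84.2 CPM against 4.27 to 12.7 CPM, whereas *SOCS3* spans 5.01 to 165 CPM within the UCP1 KI pigs. Heights are not comparable between genes, since CPM is not divided by gene length.

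None of the other 8 counted genes passed an unadjusted p under 0.05 with an absolute log2 fold change above 0.5 in edgeR's quasi-likelihood test. Among all 13402 genes tested, 8.19% passed these limits. The count was also 0 at an unadjusted p under 0.05 alone, and 0 genes of the whole table had an adjusted p under 0.05, the smallest being 0.160 after Benjamini-Hochberg adjustment. DESeq2 on the same genes called 2 of the 8, *SOCS3* and *GHR*, where it called 9.79% of the whole table, and DESeq2 on all genes with any count called *GHR* alone, where it called 6.94%. After adjustment DESeq2 called 0 of the 8 in both runs, beside 127 and 112 genes of the whole table. The median log2 fold change of the 8 genes was 0.37, beside -0.02 over all genes tested, with 7 above 0 and *IGF1* below it.

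*GHR* (ENSSSCG00000016866), the growth hormone receptor on chromosome 16, was measured at 23.2, 47.9 and 26.1 CPM in UCP1 KI replicates 1 to 3 and at 11.7, 11.3 and 26.9 CPM in WT replicates 1 to 3. WT replicate 3 reached the level of UCP1 KI replicates 1 and 3, so that the groups overlapped. Its log2 fold change of 0.96 ± 0.44 (SE) had an unadjusted p of 0.0610 in edgeR and an adjusted p of 0.617. When WT replicate 3 was left out *GHR* was at 1.49 and past both limits, and when UCP1 KI replicate 2 was left out it was at 0.56. It also passed them with library size as the only scaling, at 1.24, where the median of all genes moved from -0.02 to 0.24, and with all genes with any count in the fit, at 0.97.

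*JAK2* (ENSSSCG00000005215), the kinase bound to GHR, was measured at 14.2, 10.4 and 6.89 CPM in UCP1 KI replicates 1 to 3 and at 9.79, 9.06 and 6.07 CPM in WT replicates 1 to 3. The groups overlapped, with a log2 fold change of 0.34 ± 0.34 (SE, edgeR adjusted p of 0.803). It was 0.059 when UCP1 KI replicate 1 was left out, 0.16 when WT replicate 3 was and 0.56 when UCP1 KI replicate 3 was.

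*STAT5A* (ENSSSCG00000017402) and *STAT5B* (ENSSSCG00000017406) encode the closely related transcription factors of the axis. They are neighbours on chromosome 12, and their spans in the RefSeq annotation share 683 bases, from 20498103 to 20498785. How reads in shared or near-identical stretches were counted is not given in the sources used here, so the split of counts between them is uncertain. *STAT5A* was measured at 19.9, 23.4 and 25.3 CPM in UCP1 KI replicates 1 to 3 and at 17.4, 25.9 and 22.02 CPM in WT replicates 1 to 3, so that the groups overlapped over most of their range. The fitted difference was 0.07 ± 0.24 (SE) on the log2 scale (edgeR adjusted p of 0.945), and its sign turned in the fits that omit UCP1 KI replicate 3 (-0.01) or WT replicate 1 (-0.077). *STAT5B* was measured at 41.01, 45.6 and 55.6 CPM in UCP1 KI replicates 1 to 3 and at 31.1, 40.87 and 40.8 CPM in WT replicates 1 to 3. *STAT5B* was the single gene of these 8 without overlap between the groups, by a narrow gap between UCP1 KI replicate 1 and WT replicate 2, and among all genes tested 15.3% had no overlap, 7.59% with the UCP1 KI pigs higher and 7.69% with them lower. At 0.34 ± 0.23 (SE) on the log2 scale it stayed outside the limits (edgeR adjusted p of 0.716), and fits without 1 pig gave 0.20 to 0.43.

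*STAT3* (ENSSSCG00000017403), next to *STAT5A* on chromosome 12, was measured at 169 CPM in UCP1 KI replicate 1, 146 CPM in replicate 2 and 78.9 CPM in replicate 3. The WT pigs were at 70.4, 135 and 93.3 CPM. UCP1 KI replicate 3 lay below WT replicates 2 and 3. The fitted difference was 0.40 ± 0.37 (SE) on the log2 scale (edgeR adjusted p of 0.782), and fits without 1 pig gave 0.18 to 0.68. The study names *STAT3* as significantly higher in UCP1 KI muscle. Here its unadjusted p was 0.310 in edgeR. In DESeq2 it was 0.333 for the genes kept in edgeR, and 0.317 when every gene with a count was kept. The reason for the different call was not tested.

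*SOCS3* (ENSSSCG00000036956), on chromosome 12, encodes the inhibitor that binds JAK kinases and the IL6 receptor chain gp130. It was measured at 165, 89.5 and 5.01 CPM in UCP1 KI replicates 1 to 3 and at 19.6, 34.5 and 11.3 CPM in WT replicates 1 to 3. The highest and the lowest value of the 6 pigs both belonged to UCP1 KI pigs. On the log2 scale the difference was 1.99 with a standard error of 1.0002, an unadjusted p of 0.0834 and an edgeR adjusted p of 0.636. It was 2.55 and past both limits when UCP1 KI replicate 3 was left out, and 1.12 when UCP1 KI replicate 1 was. It also passed them with library size only (2.20) and with all genes with any count (2.01), while with the replicate number as a block it was 1.16.

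*SOCS1* (ENSSSCG00000027855), on chromosome 3, encodes the inhibitor best known from interferon and IL2 signalling. It was measured at 5.53, 9.98 and 1.30 CPM in UCP1 KI replicates 1 to 3 and at 3.25, 5.44 and 2.24 CPM in WT replicates 1 to 3. As for *SOCS3*, UCP1 KI replicate 3 was the lowest of the 6 pigs. The difference of 0.62 ± 0.68 (SE) on the log2 scale (edgeR adjusted p of 0.821) became -0.092 when UCP1 KI replicate 2 was left out.

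*IGF1* (ENSSSCG00000000857), on chromosome 5, encodes the growth factor through which much of the growth hormone effect on muscle is exerted. It had 32, 33 and 46 counts in UCP1 KI replicates 1 to 3 and 52, 66 and 29 counts in WT replicates 1 to 3. The UCP1 KI mean was 1.06 ± 0.148 CPM (SD, n = 3) and the WT mean was 1.60 ± 0.736 CPM (SD, n = 3), while WT replicate 3 fell among the UCP1 KI pigs. Its log2 fold change was -0.59 ± 0.46 (SE, edgeR adjusted p of 0.743), and -0.18 when WT replicate 2 was left out. *IGF1* was thus the member whose fitted difference pointed away from that of *CISH*.

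**Figure D2:**
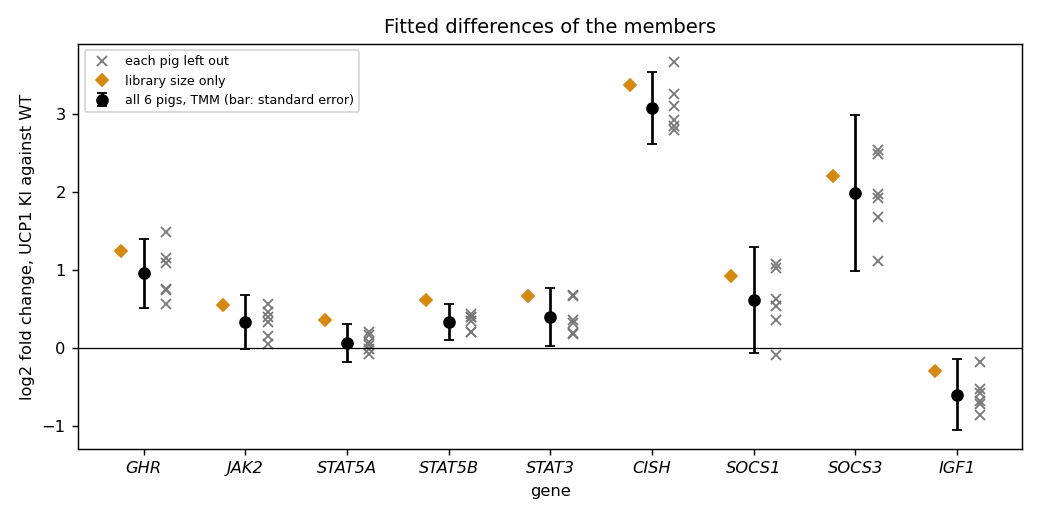
Log2 fold change of UCP1 KI against WT for the 9 counted genes, from edgeR with all 6 pigs (black points, bars are the standard error), with each pig left out (grey crosses) and with library size only (orange diamonds). *CISH* spans 2.80 to 3.67 over the crosses, *SOCS3* spans 1.12 to 2.55, and *SOCS1* and *STAT5A* reach below 0.

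The ratio of *CISH* counts to the counts of another member within a pig does not depend on how the libraries were scaled. For each of the 8 other genes, the ratios of the UCP1 KI pigs all exceeded those of the WT pigs, and since *CISH* was chosen for its difference this is a description. The gap was widest for *IGF1*, where *CISH* had 81.3, 67.0 and 38.8 counts per *IGF1* count in UCP1 KI replicates 1 to 3 and 4.10, 5.26 and 4.41 in WT replicates 1 to 3. Per *JAK2* count the ratios were 5.92, 5.98 and 6.86 against 0.600, 1.40 and 0.703, so that they were almost the same in the 3 UCP1 KI pigs. The gap was narrow for *GHR*, with a lowest UCP1 KI ratio of 1.30 and a highest WT ratio of 1.12. Per *SOCS3* count the ratio was 0.510 and 0.693 in UCP1 KI replicates 1 and 2, 9.44 in replicate 3, and between 0.300 and 0.379 in the WT pigs. The proportion of *CISH* to *SOCS3* thus lay between 0.300 and 0.693 in 5 pigs, and UCP1 KI replicate 3 stood far above them.

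Within each genotype, the order of the pigs is not set by the difference between the groups that singled out *CISH*. *CISH* was highest in replicate 1 and lowest in replicate 3 of the UCP1 KI pigs, and highest in replicate 2 and lowest in replicate 3 of the WT pigs. Of the other 8 members *SOCS3* had this order in both groups, as had 3.49% of all genes tested. Of the 26 tested target genes of STAT5 or STAT3, listed by symbol, 6 had it: *BCL3*, *JUNB*, *PIM3*, *MYC*, *ICAM1* and *TNFRSF1A*. In the other lists around the axis it was found in 2 of 17 receptors, 1 of 7 ligands, 2 of 20 negative regulators, 2 of 15 genes around IGF1 and 0 of the 7 other JAKs and STATs. *BCL3*, a transcriptional co-regulator, was at 46.0, 30.2 and 7.79 CPM in UCP1 KI replicates 1 to 3 and at 10.01, 21.9 and 7.47 CPM in WT replicates 1 to 3. In UCP1 KI replicate 3 *BCL3* lay within the WT range, while *CISH* stayed above it.

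The genes whose profile over the 6 pigs was closest to that of *CISH* were *SLC30A4*, *ZFP2*, *GALNT15*, *CEBPD* and *CENPU*. Their mean absolute differences from *CISH* were 0.43, 0.44, 0.47, 0.52 and 0.61, on the scale of log2(CPM + 1) after subtraction of each gene's mean over the pigs. *SLC30A4*, a zinc transporter, was at 6.39 to 10.3 CPM in the UCP1 KI pigs and at 0.133 to 4.09 CPM in the WT pigs, with its highest WT value in replicate 2 as for *CISH*. Its log2 fold change of 2.39 was 5.04 when that pig was left out. *GALNT15*, an enzyme of O-glycosylation, was at 52.2 to 151 CPM in the UCP1 KI pigs and at 9.61 to 20.9 CPM in the WT pigs. *ZFP2*, a zinc finger protein, was at 21.7 to 25.4 CPM and 1.502 to 7.05 CPM, and *CENPU*, a centromere protein, at 4.27 to 9.28 CPM and 0.667 to 1.13 CPM. Likeness to *CISH* selects genes that differ between the groups, so these differences are a description. By the same measure *GHR*, at 1.08, and *SOCS3*, at 1.15, were the members closest to *CISH*, and 1.84% and 3.35% of the tested genes were closer than they were. The measure includes the difference between the groups, so this closeness is a description too. Within the groups *GHR* did not have the order of pigs seen for *CISH*, whereas *SOCS3* did. *IGF1*, at 1.66, was the farthest.

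Target genes of STAT5 or STAT3 were taken as a list of 30 symbols, of which 26 could be tested, and 4 of these rose past both limits while 0 fell. Over all genes 3.84% passed the limits upward. *CEBPD* (ENSSSCG00000032367), a C/EBP transcription factor induced by cytokines and glucocorticoids, was at 109.99, 91.2 and 118 CPM in UCP1 KI replicates 1 to 3 and at 17.6, 39.0 and 24.1 CPM in WT replicates 1 to 3. Its log2 fold change of 1.98 ± 0.33 (SE) had an unadjusted p of 0.000398 in edgeR and an adjusted p of 0.280, while DESeq2 on the same genes gave an adjusted p of 5.02e-05. The groups did not overlap, and unlike *SOCS3* it was highest in UCP1 KI replicate 3. The related *CEBPB* was at 378, 434 and 376 CPM against 143, 119 and 186 CPM, a log2 fold change of 1.41 ± 0.27 (SE) with an adjusted p of 0.386 in edgeR and 0.000223 in DESeq2.

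*CDKN1A* (ENSSSCG00000001565), the cell cycle inhibitor p21, was at 162, 294 and 1026 CPM in UCP1 KI replicates 1 to 3 and at 59.8, 84.6 and 149 CPM in WT replicates 1 to 3. UCP1 KI replicate 3 was far above the other 5 pigs. The log2 fold change was 2.33 ± 0.71 (SE) with an adjusted p of 0.583 in edgeR and 0.0413 in DESeq2, and it was 1.22 and still past both limits when UCP1 KI replicate 3 was left out. *GADD45G*, a growth arrest gene, was at 90.3, 70.7 and 36.9 CPM against 40.4, 37.4 and 23.4 CPM, a log2 fold change of 0.97 ± 0.38 (SE, edgeR adjusted p of 0.592). Of the 6 fits that leave out a pig, *GADD45G* passed the limits in 1, that without UCP1 KI replicate 3. At the other end *FGL2*, a fibrinogen-like protein, was at -0.89 (edgeR adjusted p of 0.631), outside the limits with all pigs and past them, at -1.25, when WT replicate 1 was left out.

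The median over the 26 target genes was 0.33, with 18 of them above 0. In the fit that omits UCP1 KI replicate 3, where 3.9% of all genes rose past both limits, 10 of them did in place of 4, the added ones being *PIM1*, *PIM3*, *CCND1*, *BCL3*, *JUNB* and *ZFP36*. With library size only 7 rose past them, where 6.93% of all genes did. *MYC*, a target of both factors, had a log2 fold change of -0.44, and *BCL6*, which STAT5 is known to repress, had one of 0.24. Fits without 1 pig gave -0.75 to -0.041 for *MYC*, the latter without WT replicate 2, and 0.039 to 0.57 for *BCL6*. Neither of them passed the limits.

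**Figure D3:**
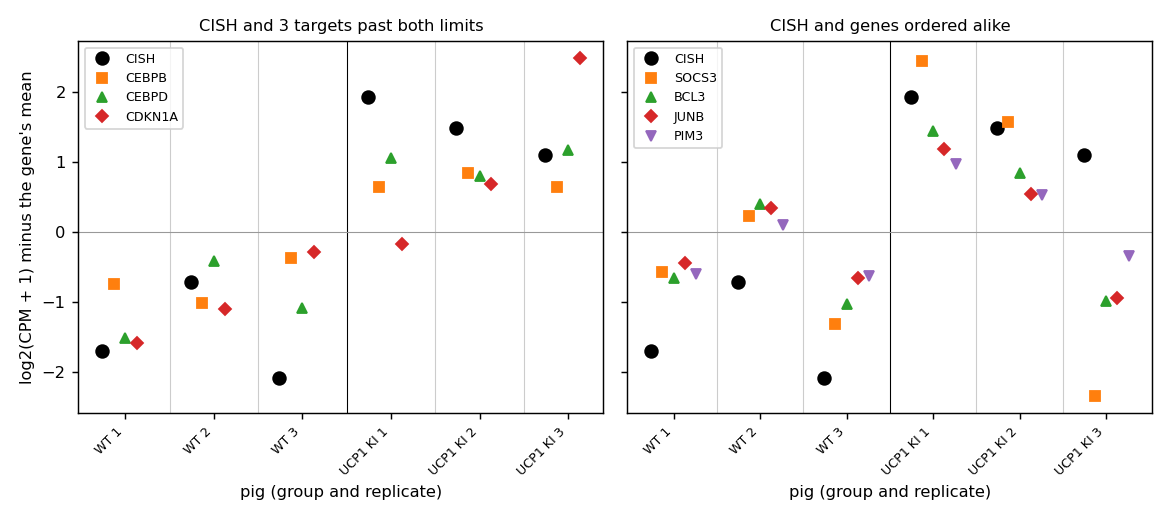
Log2(CPM + 1) of each gene minus its mean over the 6 pigs, for *CISH* (black circles) beside *CEBPB*, *CEBPD* and *CDKN1A* on the left and beside *SOCS3*, *BCL3*, *JUNB* and *PIM3* on the right, with WT pigs left of the vertical line in each panel. The genes on the left are higher in all 3 UCP1 KI pigs, whereas *SOCS3*, at 5.01 CPM, and *BCL3*, at 7.79 CPM, are low in UCP1 KI replicate 3 and *CISH* is not. *GADD45G*, a target past both limits whose groups overlapped, is not drawn on the left. Target genes ordered like *CISH* but not drawn on the right are *MYC* (log2 fold change -0.44), *ICAM1* (0.39) and *TNFRSF1A* (0.47).

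Of the other JAKs and STATs, 7 genes were tested and 2 rose past both limits, as did 3.84% of all genes. *JAK1* (ENSSSCG00000003809), the kinase of the interferon and IL6 receptors, was at 90.7, 117 and 139.6 CPM in UCP1 KI replicates 1 to 3 and at 67.0, 80.9 and 81.3 CPM in WT replicates 1 to 3, without overlap. It differed by 0.60 ± 0.25 (SE) on the log2 scale, with an unadjusted p of 0.0432 in edgeR and an adjusted p of 0.603. *JAK3* (ENSSSCG00000013888), a kinase of lymphocytes, was at 5.24, 7.68 and 2.44 CPM against 2.07, 2.85 and 2.40 CPM. UCP1 KI replicate 3 was at the WT level, and the difference was 1.07 ± 0.44 (SE) on the log2 scale (edgeR adjusted p of 0.603). With 1 pig left out, *JAK1* passed only when that pig was UCP1 KI replicate 1 (0.75) and *JAK3* only when it was UCP1 KI replicate 3 (1.40), and *JAK3* did not pass with the replicate number as a block (0.94). The lowest gene of this list was *STAT2*, at -0.57 (edgeR adjusted p of 0.796), and at 0.20 when WT replicate 2 was left out.

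Cytokine receptors were tested for 17 of 23 symbols, and 2 of them rose past both limits, beside the 3.84% of all genes. *IL6R* (ENSSSCG00000027628), which binds IL6, was at 38.2, 37.1 and 27.6 CPM in UCP1 KI replicates 1 to 3 and at 22.4, 19.1 and 14.1 CPM in WT replicates 1 to 3. No overlap was seen, the log2 fold change was 0.89 ± 0.26 (SE) with an unadjusted p of 0.0103 in edgeR and an adjusted p of 0.583, and *IL6R* passed the limits in each of the 6 fits that leave out a pig. Its signalling partner *IL6ST*, which encodes gp130, had a log2 fold change of -0.056 ± 0.22 (SE, edgeR adjusted p of 0.953), whose sign turned in fits that leave out a pig. *IL2RG*, the chain shared by the IL2 family of receptors, did not pass in edgeR, at 1.57 ± 0.77 (SE, edgeR adjusted p of 0.632), but did in both DESeq2 runs, which called 3 receptors, with library size only (1.85) and when UCP1 KI replicate 3 was left out (2.07). That was the only 1 of the 6 fits that leave out a pig in which *IL2RG* passed, and the lowest of them gave 0.96. *IL2RB*, a receptor chain of T and NK cells, was at 3.17, 8.98 and 1.03 CPM against 1.57, 0.694 and 0.734 CPM, a log2 fold change of 2.12 ± 0.77 (SE, edgeR adjusted p of 0.583). *IL2RB* passed the limits in 3 of the 6 fits that leave out a pig, and was at 1.06 when UCP1 KI replicate 2 was left out. It did not pass with the replicate number as a block (1.68). The lowest receptor was *IL11RA*, at -0.48 (edgeR adjusted p of 0.700), which passed the limits when WT replicate 1 was left out, at -0.72. *PRLR* and *EPOR*, receptors that also use JAK2 and STAT5, had at most 4 counts in any pig, too few for a difference to be seen.

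Of 8 leukocyte markers tested 2 rose past both limits, *CD3E* and *CD2*, beside the 3.84% of all genes that did. With 1 pig left out, *CD3E* (1.84 with all pigs, 0.95 at the lowest) passed in 2 of the 6 fits and *CD2* (2.50 with all pigs, 1.52 at the lowest) in 4. The other 6 did not pass, with log2 fold changes from 0.024 for *CD79A* to 0.80 for *CD163*. *CD3E*, of the T cell receptor complex, was at 2.91, 7.04 and 1.03 CPM in UCP1 KI replicates 1 to 3 and at 1.27, 0.621 and 1.17 CPM in WT replicates 1 to 3, so that the groups overlapped. Summed over the 9 markers with an identifier, the level was 100.1 to 187 CPM in UCP1 KI pigs and 102 to 147 CPM in WT pigs, and without *CD79A*, which held most of it, 23.2 to 73.5 CPM and 21.7 to 42.4 CPM. *LYZ* was at 0 counts in all pigs. The part of leukocytes in the values of *JAK3* and *IL2RB* was not tested.

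Among cytokine ligands 7 of 18 symbols could be tested and 0 passed the limits, beside the 8.19% of all genes, with 0 at an unadjusted p under 0.05 in edgeR and 0 called by DESeq2. *LIF* was the highest, at a log2 fold change of 0.996 ± 0.77 (SE), and *IL6* the lowest, at -0.66 ± 0.91 (SE). Fits without 1 pig gave 0.41 to 1.45 for *LIF*. *IL6* was at 4.17, 0.701 and 1.72 CPM in UCP1 KI pigs and at 0.799, 7.85 and 1.80 CPM in WT pigs, and its direction turned without WT replicate 2, to 0.75. *PRL*, *IL2*, *IL4* and *EPO* had 0 counts in each pig. Growth hormone itself had no identifier under the symbol searched, *GH1*.

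The other negative regulators, 20 genes that include *SOCS4* to *SOCS7*, the PIAS proteins, tyrosine phosphatases and the subunits of the ligase that SOCS proteins recruit, had a median log2 fold change of 0.05, and 0 of them passed the limits with edgeR or DESeq2, where edgeR called 8.19% of all genes, with 0 at an unadjusted p under 0.05 in edgeR. Without UCP1 KI replicate 3 the phosphatase *PTPN6* (1.06) and the adaptor *SH2B2* (0.99) passed them, and without WT replicate 1 *SOCS4* did (-0.73). *PTPRC*, which is also a leukocyte marker, was the highest at 0.79 (edgeR adjusted p of 0.752), and *PIAS2* the lowest at -0.40 (edgeR adjusted p of 0.861). *SOCS4*, *SOCS5*, *SOCS6* and *SOCS7* had log2 fold changes of -0.35, -0.26, 0.13 and 0.64, with overlapping groups for each. *SOCS6* and the phosphatase *PTPN1* changed sign in fits that leave out a pig. The fitted difference of *CISH*, at 3.09, and that of *SOCS3*, at 1.99, were above those of the 5 other SOCS genes counted. *CISH* was chosen for its difference, so its place is a description. *SOCS3* did not pass the limits in edgeR with all pigs, and its lowest value was that of UCP1 KI replicate 3. The differences between these genes were not tested.

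Of the genes around IGF1, 15 of 19 symbols could be tested and 1 fell past both limits, where 4.34% of all genes did. *IGFBP7*, a binding protein of vessel walls and stroma, was at 169.7, 145 and 139.75 CPM in UCP1 KI replicates 1 to 3 and at 311, 339 and 162 CPM in WT replicates 1 to 3. WT replicate 3 was close to the UCP1 KI pigs. The log2 fold change of -0.84 ± 0.32 (SE) had an unadjusted p of 0.0335 in edgeR and an adjusted p of 0.592. With 1 pig left out *IGFBP7* passed only when that pig was WT replicate 3 (-1.10), and it did not pass with library size only (-0.59). *IGFBP5* was lowest, at -1.31 ± 0.70 (SE, edgeR adjusted p of 0.653), and *GRB10*, an adaptor that restrains the insulin and IGF1 receptors, was highest, at 0.69 ± 0.32 (SE, edgeR adjusted p of 0.622). *IGFBP5* passed the limits with DESeq2 (-1.32) and when UCP1 KI replicate 3 was left out (-2.14). *GRB10* passed both limits with the replicate number as a block (0.74), with library size only (0.93) and when WT replicate 3 was left out (1.04). *IGF1R*, the receptor, had a log2 fold change of 0.28 ± 0.45 (SE, edgeR adjusted p of 0.882), whose sign also turned in such fits. Of 7 fibroblast markers 4 fell past both limits, *COL1A1* (-1.86), *COL1A2* (-1.696), *COL3A1* (-1.57) and *LUM* (-0.57), and *LUM* did so in 1 of the 6 fits that leave out a pig. *DCN* (-0.39), *PDGFRA* (-0.081) and *DPT* (0.17) did not pass. The 3 collagen genes held most of the summed level of the list in every pig but UCP1 KI replicate 2, and that level was 251 to 444 CPM in UCP1 KI pigs and 749 to 1201 CPM in WT pigs. Red blood cell markers summed to 11.6 to 76.5 CPM and 106 to 181 CPM, nearly all of it *HBB*, which did not pass (-1.29, unadjusted p of 0.0795 in edgeR), and 1 of 4, *HBM*, fell past the limits, which it did in 2 of the 6 fits that leave out a pig. Of 5 endothelial markers *TEK* rose past both limits (1.20), where 3.84% of all genes did. The other 4 lay between 0.013 and 0.50. The summed level of the endothelial list was 304 to 552 CPM in UCP1 KI pigs and 271 to 518 CPM in WT pigs. Of 5 adipocyte markers *LIPE* rose past both limits (1.12), beside the same 3.84% of all genes. The other 4 adipocyte markers lay between -1.26 and -0.80, but between -0.26 and 0.00042 when WT replicate 2 was left out. The part of these cell types in the values above was not tested.

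**Figure D4:**
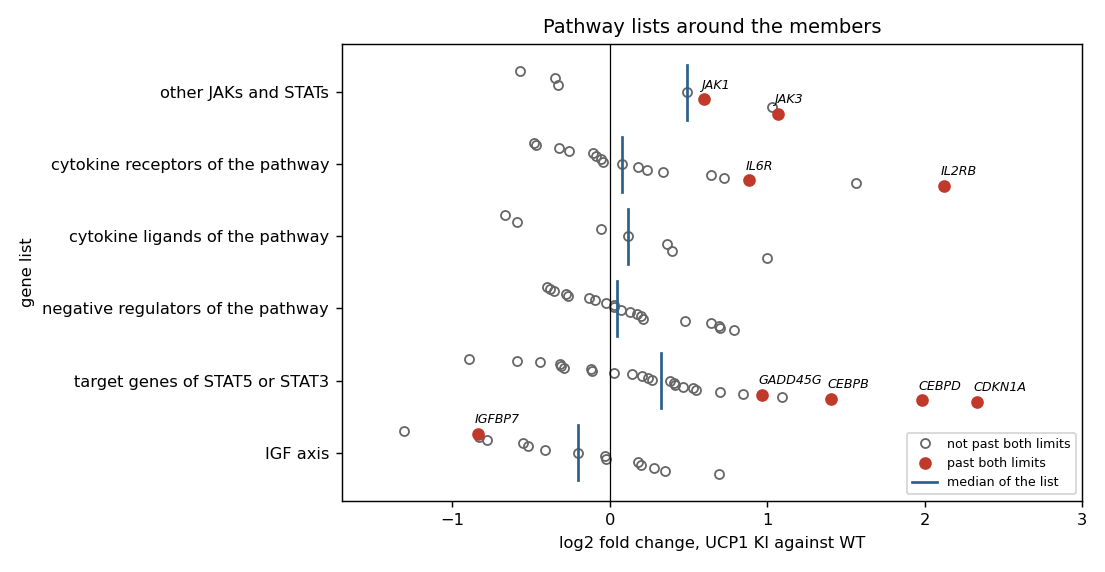
Log2 fold change of UCP1 KI against WT for each tested gene of 6 lists around the axis, from edgeR, with filled points for genes past both limits and a bar at the median of each list. The target gene list holds 4 genes past the limits, from *GADD45G* at 0.97 to *CDKN1A* at 2.33, and the lists of ligands and negative regulators hold 0.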

How the data were processed

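RNA-seq of longissimus dorsi was analysed for 3 UCP1 KI and 3 WT pigs, 1 library each. The submitters' processing notes name Sscrofa11.1, FastQC 0.11.2, Trimmomatic 0.36, HISAT2 2.0, bedtools 2.26.0, StringTie 1.3.3b and DESeq2 1.12.4. The authors deposited raw counts per Ensembl gene, without normalization. The counting program, its strand setting and the annotation release are not given in the sources used here.

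Counts were tested with edgeR 4.0.16 in R 4.3.3, with genes kept by filterByExpr, TMM factors, condition as the only term and the quasi-likelihood F test. Calls required an unadjusted p below 0.05 together with a log2 fold change beyond 0.5 in size, as in the study's methods, and p values were adjusted by Benjamini-Hochberg over all 13402 genes tested. The standard error is the size of the log2 fold change divided by the square root of F. CPM uses TMM-scaled totals, and 3 counts, the floor set for a count of 0, correspond to 0.0795 to 0.110 CPM, which covers counting error only. The labels number replicates without naming animals, which are taken here as separate pigs, and p values measure the spread between these samples. No pair within a group had identical values, a check that repeat libraries of 1 pig would also pass.

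Symbols were matched by Ensembl identifier (14864 matched) and positions were taken from RefSeq by symbol. Named genes are all members, from each pathway list those called and the highest and lowest log2 fold change, and the 5 genes most like *CISH*. Genes given with the order of pigs, the SOCS family and the receptors near 0 were added after their values were seen. The members and lists were chosen with earlier results of these data known. Alternatives were DESeq2 1.42.0, other scaling and filters, the replicate number as a block, no fold change limit, and each pig left out. The procedure was tested on simulated data. No sequences of these genes were used here.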

Additional observations from a re-analysis of the deposited data

How the results depend on the processing

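The log2 fold change of *CISH* lay between 2.80 and 3.67 over all alternatives, and the median of the other 8 members between 0.31 and 0.65. Members called other than *CISH* numbered 0 with all pigs, 2 with DESeq2 on the same genes, 1 with DESeq2 on all genes with any count, 2 with library size only and 2 with all genes with any count in edgeR, and 0 to 1 with each pig left out. With library size only, 7 target genes and 1 negative regulator, *SH2B2*, passed the limits, and the gene of the IGF list that passed was *GRB10*, higher, in place of *IGFBP7*. With DESeq2, 2 genes of the IGF list passed in both runs. Leaving out a pig gave 678 to 1541 genes over the whole table, the lowest being without UCP1 KI replicate 2 and the highest when WT replicate 3 was left out, and 718 when WT replicate 2 was, together with 0 to 1 of the other JAKs and STATs, 1 to 3 receptors, 0 to 1 ligands, 0 to 2 negative regulators, 3 to 10 target genes and 0 to 2 genes of the IGF list. The log2 fold change turned in some of these fits for *SOCS1* (-0.092 to 1.08), *STAT5A* (-0.077 to 0.21), *STAT2* (-1.06 to 0.20), *IL6* (-1.51 to 0.75), *PTPRC* (-0.046 to 1.19), *PIAS2* (-0.82 to 0.11), *IL6ST* (-0.16 to 0.0097), *IGF1R* (-0.0097 to 0.76), *SOCS6* (-0.083 to 0.23), *PTPN1* (-1.41 to 0.53), *CCND1* (-0.20 to 0.70), *CD79A* (-0.14 to 0.17), *PDGFRA* (-0.34 to 0.33), *DPT* (-0.071 to 0.37) and *CIDEC* (-1.54 to 0.00042). The cause was not tested. The replicate number as a block gave 1 of the other JAKs and STATs, 1 receptor and 2 genes of the IGF list, beside 2, 2 and 1 without it, and 1114 genes over the whole table beside 1097. Same-numbered pigs of the groups had correlations of their deviations from the group means of 0.0038, 0.094 and 0.28. Differently numbered pigs had correlations of -0.20 to 0.13. These values do not settle whether the numbers mark a pairing, and the main fit took none. The numbers of genes over the whole table split into 929 higher and 195 lower with library size only, beside 515 and 582. The counts of *IGF1*, 29 to 66 per pig, limit its precision.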

Other observations

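*CISH* overlaps none of the 4 genes on either side of it in the RefSeq annotation of Sscrofa11.1. The next genes on chromosome 13 are *HEMK1*, which ends at 33058079, and *MAPKAPK3*, which starts at 33097329. Their log2 fold changes of UCP1 KI against WT were 0.56 ± 0.28 (SE) and 0.26 ± 0.29 (SE), and neither passed the limits of the edgeR test. The outermost of the 4 genes on either side, *TMEM115* (0.59 ± 0.28, SE) and *RBM15B* (0.55 ± 0.36, SE), did not pass either. *MANF*, the third gene after *CISH*, rose past both limits, as did 3.84% of all genes. Its log2 fold change was 0.92 ± 0.34 (SE, edgeR unadjusted p of 0.0289, adjusted p of 0.583). It was at 63.3, 73.6 and 29.8 CPM in UCP1 KI replicates 1 to 3 and at 27.1, 29.4 and 31.5 CPM in WT replicates 1 to 3, so that UCP1 KI replicate 3 was within the WT range. All neighbours tested had a fitted difference toward higher values in the UCP1 KI pigs. These neighbours were looked up after the values were seen.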
